A study of Mus musculus with 7 samples.

Results

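DEAD and DEAH box helicases carry Ddx and Dhx symbols in the mouse for the most part, with exceptions such as the DEAD box protein Eif4a1. The Ddx and Dhx genes were taken from CIRS-seq, which counts the positions at which reverse transcription (RT) stops 1 base before a chemically modified residue of an RNA. Members were all transcripts with a symbol that starts with Ddx or Dhx followed by a digit, which gave 124 of the 26792 transcripts analyzed and 38 of the 13218 genes, 27 Ddx and 11 Dhx. Of the 124 transcripts, 75 code for protein, 34 retain an intron, 4 are annotated as targets of nonsense-mediated decay and 11 are other processed RNAs. A protein-coding isoform was listed for 36 genes, whereas Ddx58 and Dhx35 had processed transcripts alone. Every member had RT stops in each of the 6 CIRS-seq libraries.

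DEAD and DEAH box proteins are named after the one-letter code of their motif II, the stretch of Asp, Glu and 2 further residues with which they bind and split ATP. They open or rearrange short RNA duplexes and RNA-protein contacts, and nearly every step in the life of an RNA has its own helicase, from splicing and ribosome assembly to export, translation and decay. DEAD box proteins mostly open a duplex locally, while many DEAH box proteins move along a single strand.

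CIRS-seq was done in lysates of the mouse embryonic stem cell (ESC) line E14 after digestion with Proteinase K, with 2 replicates of each treatment. The NT libraries pooled the samples that received 0 mM of either reagent. The DMS libraries pooled samples treated with dimethyl sulfate at 50 to 200 mM, which mainly modifies unpaired A and C. The CMCT libraries pooled samples treated with the carbodiimide CMCT at 10 to 50 mM, which mainly modifies unpaired U and, less so, G. RNA-seq of ribosome-depleted total RNA of the same line came from 1 library. All groups are the same untreated line with no genetic change, kept on gelatin with LIF. The study calls its replicates biological, but whether they came from separate cultures is not given in the sources used here, so p-values measure the spread between these libraries.

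The label of the cells was checked in RNA-seq. All 10 ESC markers were detected, at levels from 5.34 (Utf1) to 316 (Dppa5a) RPKM (alignments per kb of exon, scaled to the number counted in the library), with a summed level of 910.4. Of the 5 fibroblast feeder markers, Vim had 36.6 and Col1a1 0.056. The 7 germ layer markers ranged from 0 (Afp) to 4.44 (Gata6), with a summed level of 9.04.

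The libraries had between 181944556 and 338201940 RT stops with every isoform listed. Most stops lay where a read of this length could come from several places, so stops were counted only at positions whose following 25 bases are contiguous in the genome and occur once in mm9. At these positions, with each genomic position taken once per gene, the libraries held 10893122 to 20006992 stops, of which 33150 to 93317 fell on the helicases. Replicates of 1 treatment were nearly equal in part of the series. Of 8945 genes with at least 600 RT stops found once, 1027 had replicate counts that differed by less than sampling noise over the 3 treatments together, although the totals of the libraries differ. None of the 38 helicase genes was among them. For tests with and without such genes, the 1710 genes whose replicates lay within 0.1 of each other on the log2 scale in all 3 treatments were left out, which held 19.4% of the stops. This choice was made after the data were seen, and the main counts of calls are given with and without these genes. Without them, the share of all genes called per gene was 0% in both directions in DMS and in CMCT. Genes of near-equal replicates were chosen by a small spread between replicates, and the test measures changes against that spread. Leaving them out can by itself change the number of calls, and how far it did was not tested.

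The sequences below show where the data of this family turn. The first is the 30 base window around the position with the most RT stops among the helicase positions found once, in a 5′ UTR of Ddx39b on the plus strand (mm9 chr17:35379608-35379637). The second is the window around the strongest coding position, in Ddx5 on the minus strand (chr11:106643855-106643884). Each capital marks the base of the stop.

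Ddx39b: aagagaauagcggcAgccacaugauguuug

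Ddx5: cuaauaacauaaagCaagugagcgaccuua

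The next lines give the 12 bases of the motif II codons, read in frame. Capitals mark bases with a reactivity above 0.7 on a scale from 0 to 1, and a base that is not found once in the genome cannot be a capital. Ddx39 (chr8:86245009-86245020, plus strand) and Ddx39b (chr17:35384035-35384046, plus strand) are shown as a pair of paralogs with some of the deepest motif II counts, both coding for Asp-Glu-Cys-Asp. Ddx21 (chr10:62054629-62054640, minus strand) codes for Asp-Glu-Val-Asp and Dhx15 (chr5:52562735-52562746, minus strand) for Asp-Glu-Ala-His. Ddx19a (chr8:113502986-113502997, minus strand) and Ddx19b (chr8:113535235-113535246, minus strand), both coding for Asp-Glu-Ala-Asp, are shown because their 12 bases are identical and none of them is found once in the genome. These were chosen after their values were seen.

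Ddx39 motif II: GAugAAugugac

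Ddx39b motif II: gAcGAgugugac

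Ddx21 motif II: GAuGAaguCgAC

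Dhx15 motif II: GAUGaggccCAu

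Ddx19a motif II: gacgaggcugau

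Ddx19b motif II: gacgaggcugau

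The first question was how abundant the helicase mRNAs are in ESCs, for which RNA-seq gave 1 value per gene without a replicate. The median level of the 38 genes was 21.0 RPKM, against 5.29 over the protein-coding genes in CIRS-seq. Counted and scaled in coding exons alone, which held 30.8% of the counted alignments, the medians were 90.7 and 25.4. The highest levels were those of Ddx5 (103), a coactivator in splicing and microRNA processing, and Ddx3x (99.7), which acts in the translation of mRNAs with structured leaders. They were followed by Dhx15 (65.9), which takes spliceosomes apart, Ddx17 (58.2), the close relative of Ddx5, and Ddx21 (50.1), a nucleolar helicase of rRNA synthesis. Ddx1 had a level of 50.0, the export helicase Ddx39 35.1, Dhx9 35.0, the ribosome biogenesis factor Ddx18 32.8 and the spliceosomal Ddx42 31.3.

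The lowest levels were those of Ddx47 (5.04), Ddx58 (4.52), Dhx35 (4.11), Ddx55 (2.93) and Dhx37 (2.58). In coding exons alone Ddx47 was not among them, with 41.4 against 38.7 for Ddx41 and 22.2 for Ddx11. Ddx58 is the RIG-I sensor of viral RNA, and Ddx47, Ddx55 and Dhx37 act in ribosome assembly. All 38 lay between the 66.7th and the 98.3rd percentile of the 22380 protein-coding genes of GENCODE vM1, whose median was 0.52. With all positions counted, 99.9% of the protein-coding genes in CIRS-seq had at least 1 stop per base in DMS and CMCT together. CIRS-seq thus lists covered transcripts, and the part of this in the levels of its genes was not tested. In bulk RNA, fewer cells of a type and less RNA per cell cannot be told apart. By role, the median level was 14.9 over the 11 splicing helicases, 16.5 over the 12 ribosome biogenesis helicases, 25.1 over the 4 export helicases and 38.3 over the 4 helicases of translation and mRNA decay. GENCODE vM1 holds 54 genes by the same symbol rule. The 16 that are not among the CIRS-seq transcripts had a median of 4.39, from Ddx60 (0.045) to Ddx52 (23.7). The germline helicase Ddx4 had 6.77 and Ddx3y, the Y-linked paralog of Ddx3x, 5.65, and neither is among the CIRS-seq transcripts.

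RT stops followed these levels in part. In DMS and CMCT together, the median was 1.78 RT stops per base found once over the 36 mRNAs, from 0.269 to 8.53, against 1.26 over 6775 protein-coding genes. An average of at least 1 was reached by 32 of 36 helicase mRNAs and by 63.0% of all. In replicate 1 alone it was reached by 20 of 36 and 37.9%, and in replicate 2 alone by 11 of 36 and 25.8%. Over its main isoform, Ddx5 had 1.71 and 1.30 stops per base in the NT replicates, 1.52 and 1.06 with DMS and 3.57 and 2.38 with CMCT. Ddx55 lay at the other end, with 0.052 and 0.032 in NT, 0.065 and 0.041 in DMS and 0.101 and 0.063 in CMCT. Across the 36 mRNAs, the RNA-seq level and the stops per base in DMS and CMCT had a Pearson correlation of 0.803 on the log2 scale and a Spearman correlation of 0.680. These are correlations across genes that share the same 7 libraries. Replicate 1 had more stops than replicate 2 in every treatment for most members, with median log2 ratios of 0.66 for NT, 0.40 for DMS and 0.59 for CMCT. These ratios are not scaled to library size, and over all genes with at least 600 stops they were 0.44, 0.13 and 0.65.

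**Figure D1:**
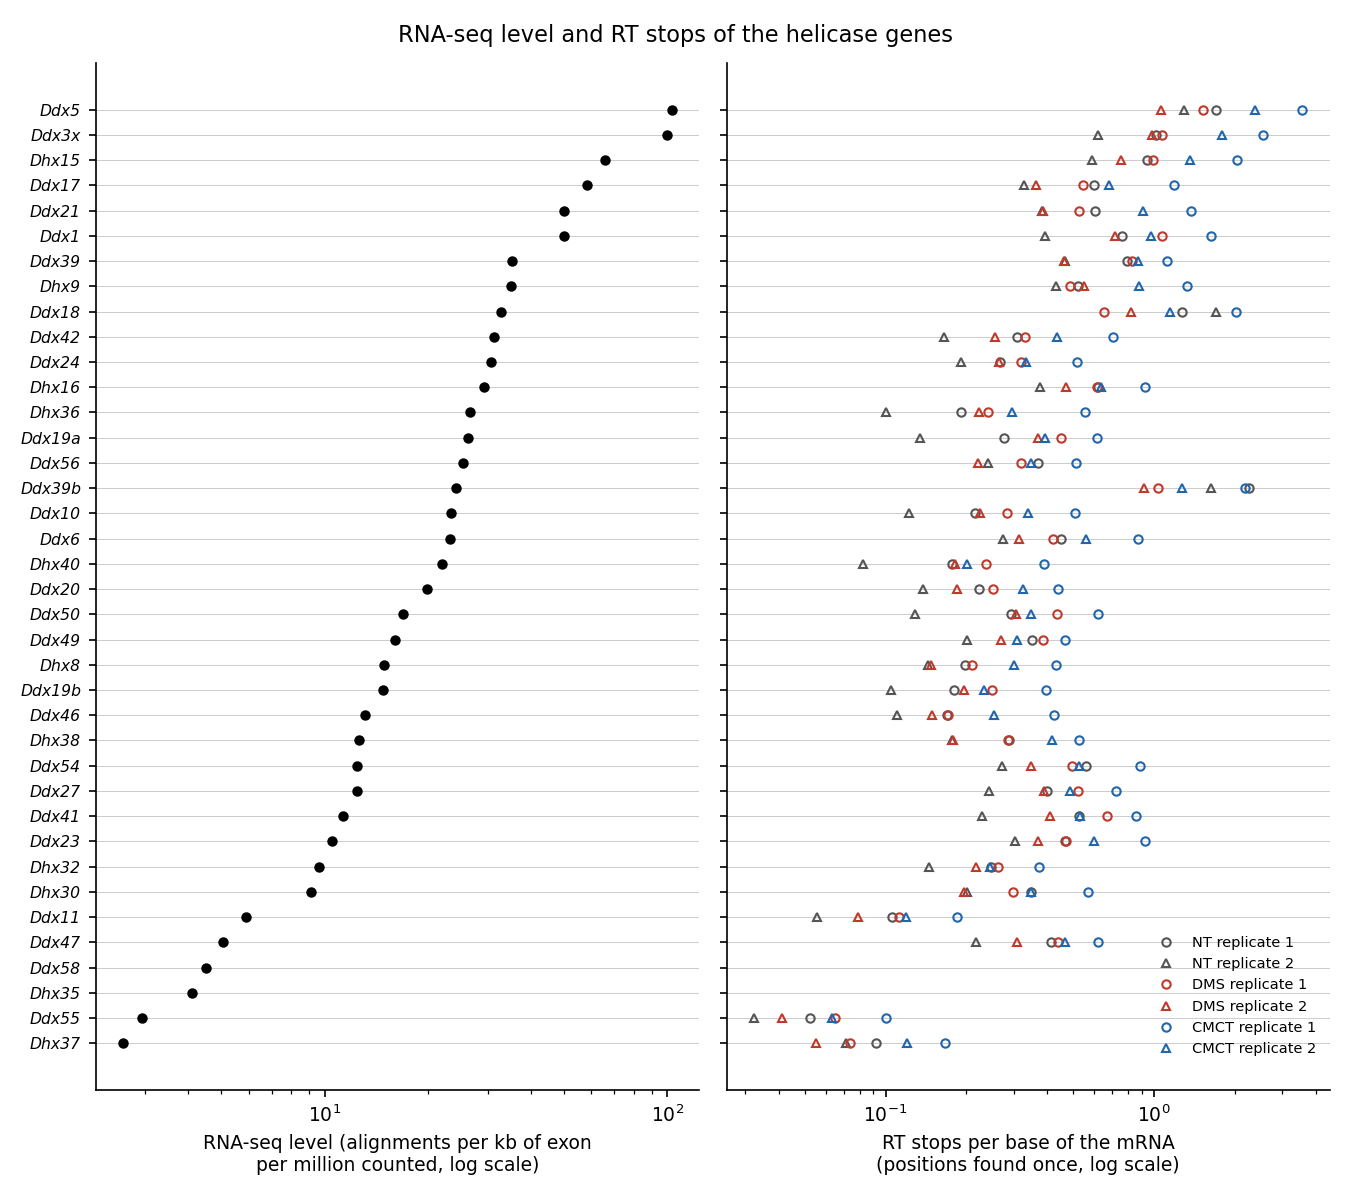
RNA-seq level (left, RPKM) and RT stops per base found once (right) of each helicase gene, ordered by RNA-seq level, with log axes. Points are single libraries. Ddx39b and Ddx18 have both NT values above both DMS values, and Ddx58 and Dhx35 have no protein-coding isoform and therefore no point on the right.

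How much of the signal can be placed on the helicase itself differed widely between genes. The share of positions found once was between 14.9% (Ddx18) and 93.3% (Ddx17), with a median of 84.8%, and 4 genes lay under 60%. The share of RT stops at these positions was lower, with a median of 73.1%. It fell to 2.53% in Dhx37, 2.61% in Ddx23, 3.14% in Dhx30, 4.19% in Dhx16, 7.95% in Ddx20 and 8.82% in Ddx55, although 81.9% to 92.0% of the positions of these genes were found once. In each of them most stops lay at the few positions that are not found once.

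The strongest of these positions lay in introns or 3′ UTRs. A position in a retained intron of Dhx30, a helicase of the mitochondrial ribosome, had 18576 and 26315 stops in NT, 7579 and 30346 in DMS and 7651 and 931 in CMCT, and its following bases occur at 774 places in mm9. A position in the 3′ UTR of Ddx23, which works at the 5′ splice site, had 9108 and 8027 stops in NT, 1743 and 1822 in DMS and 2796 and 1824 in CMCT, with 216348 places. In the 3′ UTR of Dhx37 a position with 12045 places had 2100 and 2101, 744 and 743, and 721 and 722 stops in the NT, DMS and CMCT replicates. Equal replicates of this kind were frequent at such positions. Of 130 helicase positions found more than once with at least 50 stops in every library, 38 (29.2%) had replicates within 2 stops of each other in all 3 treatments, in 8 genes, most often Dhx37 (13), Ddx20 (8) and Ddx23 (7). At positions found once, 2 helicase positions were as deep and 0 had such replicates.

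**Figure D2:**
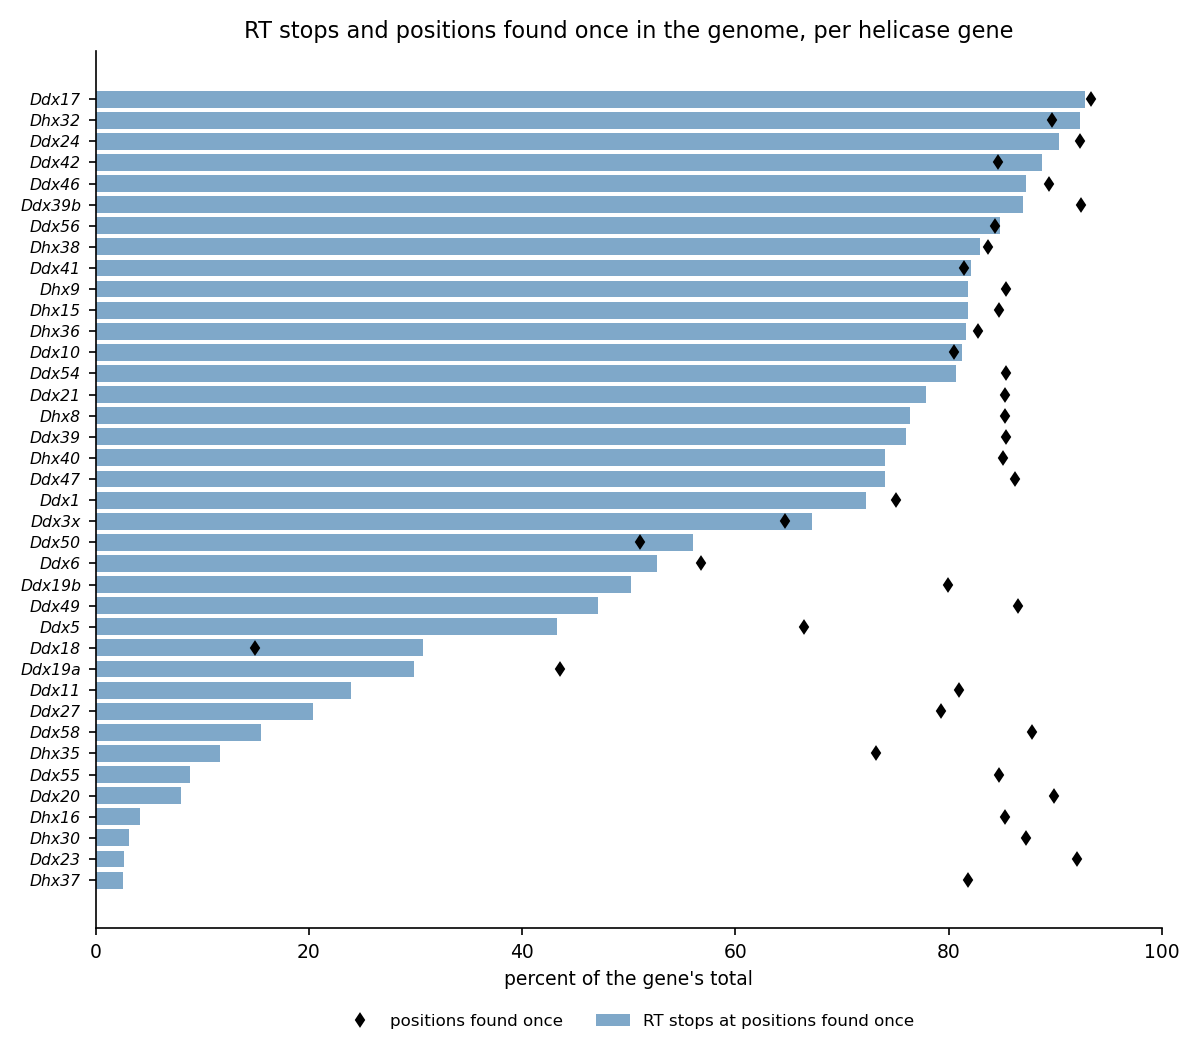
Share of RT stops (bars, percent of a gene's total over the 6 libraries) and share of positions (diamonds, percent) found once in mm9, for each helicase gene. The bars reach from 2.53% (Dhx37) to 92.8% (Ddx17), and in the lowest genes the diamond lies far to the right of the bar.

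A second limit was processed copies of the helicase mRNAs elsewhere in the genome. The 25 base windows of Ddx18 that occur more than once matched 1581 times within the pseudogene Gm16433 (chr6:108513448-108515691). Those of Ddx5 matched 1330 times within Gm12183 (chr11:48564220-48567265), and those of Ddx6, a decapping factor of P-bodies, 2168 times within Gm13410 on chromosome 2. Ddx3x had 899 matches in a stretch of chromosome 6 with no annotated gene.

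Paralogs were mostly distinct. Ddx19a and Ddx19b, which release mRNPs at the nuclear pore, shared 993 positions, 38.99% and 31.99% of their mRNAs, with a longest shared run of 275. On these positions Ddx19a had 904, 419, 1141, 642, 1574 and 834 stops in NT, DMS and CMCT replicates 1 and 2 in turn, and Ddx19b had 893, 405, 1126, 629, 1568 and 817. Their counts are thus nearly the same where the sequence is the same, and the files do not say how such reads were placed. Ddx39 and Ddx39b shared 6 positions, and Ddx5 and Ddx17, Ddx21 and Ddx50, and Dhx9 and Dhx36 shared none.

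DMS was then compared with NT at each base, which asks where the reagent left its mark. Over the 4 bases, 34 of 148 gene and base pairs rose (22.6% over all genes) and 36 fell (10.1%). Stops at A rose in DMS in 34 of 37 helicase genes with enough counts, with a median log2 fold change of 1.38 (edgeR's quasi-likelihood test, Benjamini-Hochberg adjustment over all gene and base pairs). Over all genes 71.5% rose at A, with a median of 1.58. Dhx35 had too few stops to be tested. Values below are CPM, the stops scaled by the TMM-adjusted size of each library. None fell at A (1.95% over all genes). In 36 genes both DMS libraries lay above both NT libraries (80.4% over all genes). Without the genes of near-equal replicates 30 of 37 rose, beside 64% of all genes.

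The largest rise was in Ddx50, the nucleolar relative of Ddx21, with 3.31 and 2.07 CPM at A in NT and 14.5 and 17.0 in DMS, a log2 fold change of 2.53 (SE 0.31, edgeR's quasi-likelihood test, adjusted p = 0.00188). Dhx40 followed, with 4.45 and 3.93 in NT and 20.8 and 24.5 in DMS, a log2 fold change of 2.43 (SE 0.28, edgeR adjusted p = 0.00167). Both genes had no overlap between NT and DMS, and both passed in all 11 alternatives. Dhx36, which opens G-quadruplexes, had 5.74 and 4.55 in NT and 22.0 and 25.2 in DMS, a log2 fold change of 2.19. Ddx41, a helicase of the spliceosome, had 1.95 and Dhx32 1.94.

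By role, read against the 71.5% over all genes, the rise at A passed the test in 10 of 10 splicing helicases, with log2 fold changes from 1.07 to 1.95, in 10 of 12 ribosome biogenesis helicases, in 3 of 4 export helicases and in 4 of 4 helicases of translation and mRNA decay. The 3 genes that did not pass were Ddx56, Ddx18 and Ddx39b. Ddx56, a factor of the large ribosomal subunit, had 6.47 and 6.62 CPM at A in NT and 10.6 and 11.4 in DMS, a log2 fold change of 0.75 (SE 0.25, edgeR adjusted p = 0.0561). Its DMS libraries lay above NT without overlap. Ddx18 had 3.15 and 3.00 in NT and 4.17 and 3.82 in DMS, a log2 fold change of 0.38 (SE 0.32, edgeR adjusted p = 0.396). Under the alternatives its value lay between 0.21 and 1.28. Ddx39b was the one member with both DMS libraries below NT at A, with 136 and 150.2 CPM in NT and 55.2 and 93.7 in DMS, a log2 fold change of -0.94 (SE 0.41, edgeR adjusted p = 0.114).

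At the other bases no helicase rose in DMS. The test called 0 of 37 higher at C (7.7% over all genes), at G (5.36%) and at U (5.08%). At an unadjusted p under the same threshold there were 3 members at C, 23 at G and 29 at U, and 0 of these were higher. Over all genes the unadjusted shares, in both directions together, were 22.3%, 33.9% and 43.2%. At C, 3 genes fell (5.06% over all genes), namely Ddx39b by 1.45, Ddx18 by 1.46 and Ddx5 by 0.90 on the log2 scale. At G, 16 of 37 fell (13.4% over all genes) and at U 17 of 37 (20.2%), with log2 fold changes of those called between -2.12 and -0.81 at G and between -1.86 and -0.87 at U. The largest drop at both was that of Ddx18. Without the genes of near-equal replicates 3 fell at C, 21 at G and 24 at U (5.82%, 17.3% and 28.2% over all genes). Without the positions of small RNA genes, as set out for Ddx39b below, 1 fell at C, 14 at G and 21 at U (6.54%, 14.8% and 22.9%). Ddx39b at C lay between -1.55 and -0.38 under the alternatives that left out neither a library nor the genes of near-equal replicates. These falls are relative, since the library sizes rest on all stops of a gene, those at A included. A rise at A can thus lower the scaled counts at the other bases, and its part in the falls was not tested.

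**Figure D3:**
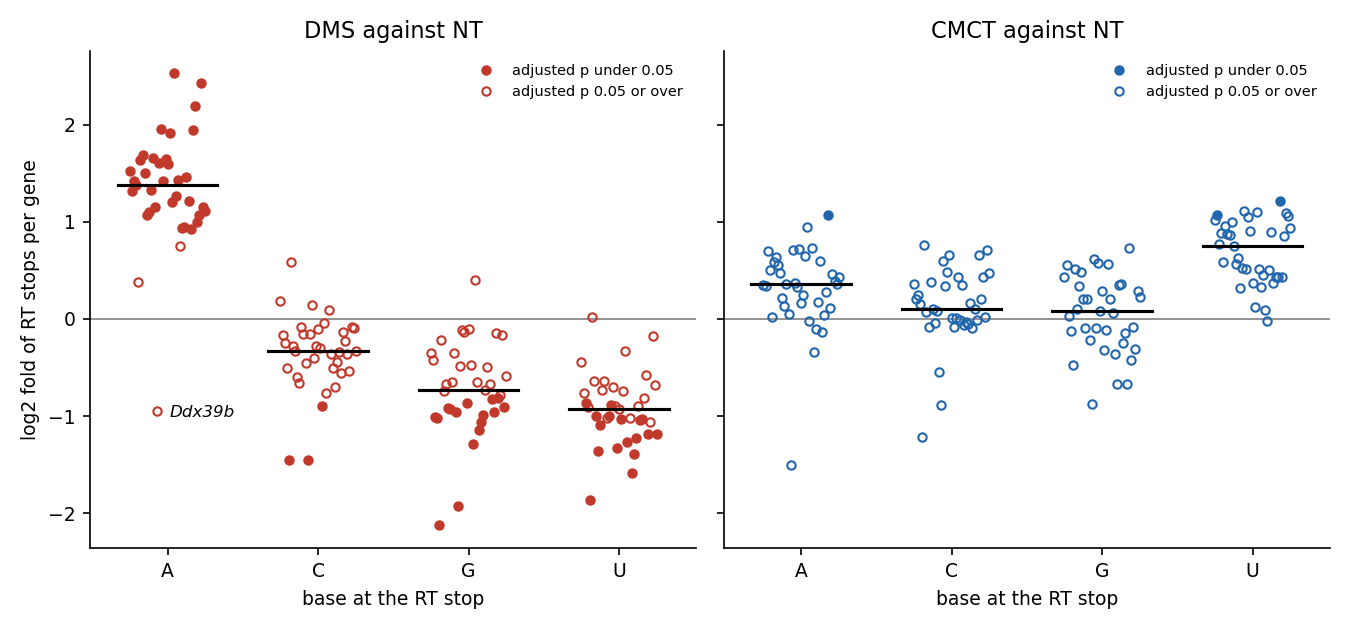
Log2 fold change of RT stops against NT for each helicase gene, split by the base at the stop, for DMS (left) and CMCT (right). Filled points passed the test, horizontal bars are medians. In DMS the points at A lie around 1.38, with Ddx39b at -0.94, and in CMCT those at U lie around 0.75, of which 2 of 37 passed.

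In CMCT, 3 of the 148 pairs rose (6.3% over all genes) and 0 fell (3%), with 35 at an unadjusted p under the threshold (29.6%). Stops at U had a log2 fold change above 0 in 36 of 37 genes (74.1% over all genes), with a median of 0.75 against 0.46 over all genes, and in 34 both CMCT libraries lay above both NT libraries (58.4% over all genes). The test called 2 of 37 higher, beside 12.4% of all genes, and 0 lower (1.79%), and 19 were at an unadjusted p under the threshold (40.3%). Ddx10, a factor of the small ribosomal subunit, had 15.2 and 15.0 CPM at U in NT and 29.6 and 34.0 in CMCT, a log2 fold change of 1.07 (SE 0.25, edgeR's quasi-likelihood test, adjusted p = 0.0377). Dhx36 had 17.5 and 12.1 in NT and 38.2 and 30.9 in CMCT, a log2 fold change of 1.22 (SE 0.29, edgeR adjusted p = 0.0411). Neither group overlapped, but without the genes of near-equal replicates the log2 fold change was 1.00 (edgeR adjusted p = 0.0961) for Ddx10 and 1.16 (adjusted p = 0.0733) for Dhx36, and 0 of 37 passed, beside 0.229% of all genes higher and 0.0572% lower.

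At A, Dhx36 alone rose in CMCT (5.48% over all genes) and 0 members fell (2.4%). Dhx36 rose with a log2 fold change of 1.07 (edgeR adjusted p = 0.0482), and with an adjusted p of 0.0901 without the genes of near-equal replicates. At C and G edgeR called 0 of 37 higher (3.95% and 3.13% over all genes) or lower (3.06% and 4.89%), with 3 and 5 members at an unadjusted p under the threshold (22.2% and 27.4%). The median log2 fold change was 0.36 at A, 0.10 at C and 0.08 at G.

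The shares of the bases were as follows. In the NT libraries A made up 14.3% and 16.2% of the helicase stops found once, and in DMS 32.4% and 43.7%, while A is 25.6% of the positions. U made up 30.2% and 31.3% in NT and 41.7% and 43.0% in CMCT. The DMS replicates differed from each other at A by more than the NT replicates did, and neither A in DMS nor U in CMCT overlapped with NT.

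Whole genes were compared next, to see whether the reagents changed how many stops a helicase mRNA gave in all. In DMS edgeR called 0 of 38 members higher (11.1% over all genes) and 2 lower (3.89%), Ddx39b and Ddx18. Without the genes of near-equal replicates, or without either NT library, 0 members and 0% of all genes were called. At an unadjusted p under the threshold there were 2 members (31.6% over all genes), but 11 with DESeq2's size factors (30.3%) and 15 without the genes of near-equal replicates (26.1%). The median log2 fold change of the 38 was -0.18, with 12 above 0, against 0.11 over all genes. With DESeq2's size factors the median over all genes was 0.01 and that of the members -0.28, so the members lay below all genes under both scalings. In 15 members both DMS libraries lay below both NT libraries (26.9% over all genes), in 5 above (37.2%), and in 18 they overlapped.

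Ddx39b (UAP56), which loads export factors onto spliced mRNA, had the highest level of RT stops among the Ddx and Dhx genes in NT. It had 499.96 and 472.5 CPM in NT, 197 and 201 in DMS and 308 and 282 in CMCT. Both DMS libraries were the lowest, both CMCT libraries lay between, and the groups did not overlap. The log2 fold change in DMS was -1.29 (SE 0.21, edgeR's quasi-likelihood test, adjusted p = 0.00895), and in CMCT -0.72 (SE 0.21, adjusted p = 0.0829). It passed in 6 of 12 alternatives. The adjusted p was 0.0630 without the genes of near-equal replicates, where the value was -1.46, and 0.0635 to 0.0853 with any of the 4 NT and DMS libraries left out.

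Most stops of Ddx39b in NT sat at a small RNA inside the gene. GENCODE vM1 places SNORD83, a 77 base snoRNA, on the same strand at chr17:35379623-35379699, within a 5′ UTR of 2 of the 5 Ddx39b isoforms, and the base with the most stops, chr17:35379622, is the one before it. At that base NT had 1336 and 1205 stops, DMS 79 and 409 and CMCT 835 and 69 (68 in the isoform of 2848 bases). SNORD83 and the 10 bases before it held 3765 of 6184 Ddx39b stops in NT replicate 1 (60.9%, 95% Wilson interval 59.7% to 62.1%) and 2932 of 4570 in NT replicate 2 (64.2%, 62.8% to 65.5%). In DMS they held 348 of 2934 (11.9%, 10.7% to 13.1%) and 849 of 2631 (32.3%, 30.5% to 34.1%), and in CMCT 2243 of 6135 (36.6%, 35.4% to 37.8%) and 762 of 3698 (20.6%, 19.3% to 21.9%). These intervals cover counting error only. All NT libraries lay above all treated ones in this share, and the replicates of DMS and of CMCT differed from each other by more than their intervals.

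With the positions of small RNA genes and the 10 bases before each left out of every gene, a choice made after the data were seen, the difference of Ddx39b was no longer called. Its log2 fold change was then -0.30 in DMS (edgeR adjusted p = 0.399) and 0.15 in CMCT (adjusted p = 0.692). At A it turned from -0.94 to 1.29 (edgeR adjusted p = 0.0131), and all 37 members then lay above 0 at A in DMS. The coding region of Ddx39b, which does not hold the snoRNA, had 1.601 and 0.997 stops per base in NT, 1.87 and 1.19 in DMS and 2.74 and 2.01 in CMCT. Its 5′ UTR had 2.94 and 2.25 in NT, 0.426 and 0.742 in DMS and 1.83 and 0.720 in CMCT. The isoform of 1739 bases, which lacks the snoRNA, had 2041 and 1319 stops in NT and 2279 and 1494 in DMS, whereas the isoform of 2848 bases had 5844 and 4234 in NT and 2686 and 2380 in DMS. These values per base and per isoform are raw, not scaled to library size. No rise in DMS outside the snoRNA can be read from them. At positions found once, Ddx39b was also the most concentrated by 1 measure, with 50% of its stops in 0.966% of positions, against a median of 5.57% over 33 members. Ddx18 had a larger share in its top position (18.7% against 16.3%). Over all positions Dhx37 was more concentrated, with 50% of its stops in 0.170% of them against 1.42% in Ddx39b.

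**Figure D4:**
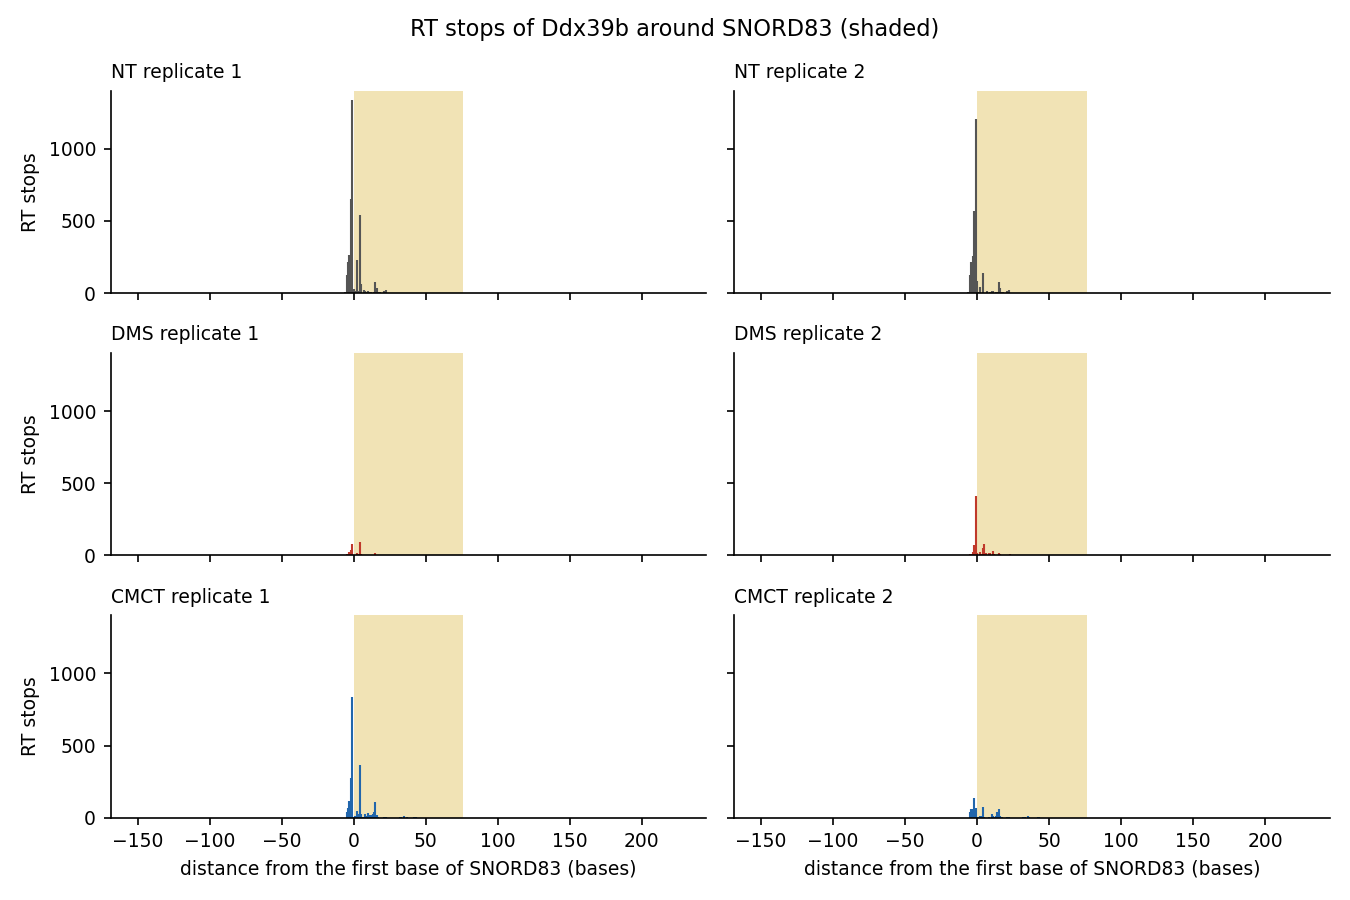
RT stops of Ddx39b at each base around SNORD83 (shaded), as distance from its first base, in each of the 6 libraries on 1 common linear axis. The stops pile up at the base before the snoRNA, with 1336 and 1205 in NT and 79 and 409 in DMS.

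Ddx18 was the other call. It had 29.02 and 49.2 CPM in NT, 12.4 and 17.4 in DMS and 28.99 and 25.3 in CMCT. Both DMS libraries lay below NT, and both CMCT libraries lay at or just under the lower NT library. The log2 fold change in DMS was -1.39 (SE 0.33, edgeR adjusted p = 0.0317). Only 14.9% of its positions were found once, and it passed in 4 of 12 alternatives. The edgeR adjusted p was 0.103 without the genes of near-equal replicates and 0.0507 with all its positions, where the log2 fold change was -0.69. With 1 library or the genes of near-equal replicates left out, the log2 fold change lay between -1.89 and -0.93. Its strongest position, chr1:123464505 in the 5′ UTR, had 83 and 85 stops in NT, 10 and 19 in DMS and 105 and 91 in CMCT.

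In CMCT edgeR called 0 of 38 members higher (7.52% over all genes) or lower (1.9%). Without the genes of near-equal replicates, or without NT replicate 2, 0% of all genes were called either. At an unadjusted p under the threshold there were 12 members (28.4% over all genes), and DESeq2's Wald test called 3 higher (8.58%) and 1 lower (7.84%). The log2 fold change was above 0 in 32 of 38 members (57.5% over all genes), with a median log2 fold change of 0.43, against 0.10 over all genes, and with DESeq2's size factors 0.33 against -0.004. In 27 members both CMCT libraries lay above both NT libraries (34% over all genes). Ddx3x had 237 and 187 CPM in NT and 370.5 and 399 in CMCT, a log2 fold change of 0.86 (SE 0.22, edgeR adjusted p = 0.0583). Its libraries did not overlap, and it passed in 4 of 12 alternatives. Dhx36 had 45.8 and 30.8 in NT and 82.8 and 66.9 in CMCT, a log2 fold change of 0.97 (SE 0.28, edgeR adjusted p = 0.0863), and passed in 2 of 12. By role, 11 of 11 splicing helicases and 4 of 4 helicases of translation and decay had a log2 fold change above 0, as had 9 of 12 ribosome biogenesis, 2 of 4 export and 1 of 2 antiviral helicases, beside the same 57.5% of all genes. With 2 libraries against 2 an exact permutation test cannot go below 0.333 two-sided, which is why the fit across all genes was used.

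RNA helicases outside both name families were tested beside them. Of 14 such genes, from Eif4a1, the cap-bound helicase of translation, to Dicer1, 12 were in CIRS-seq. In DMS edgeR called 0 of them per gene (11.1% higher and 3.89% lower over all genes). At A 9 of 12 rose (71.5% over all genes), and on the same relative scale 8 of 12 fell at U (20.2%), 4 of 11 at G (13.4%) and 1 of 12 at C (5.06%). In CMCT Skiv2l2, a helicase of the nuclear exosome, rose, with 49.96 and 40.3 CPM in NT and 97.9 and 94.6 in CMCT, a log2 fold change of 1.09 (edgeR adjusted p = 0.0334, beside 7.52% of all genes higher). It also rose at U, by 1.39, while Eif4a1 fell at C by 1.28 and Eif4a3, of the exon junction complex, at G by 1.10 on the log2 scale. None of these 4 calls in CMCT held without the genes of near-equal replicates, where the edgeR adjusted p was between 0.0661 and 0.0967. The log2 fold changes were then 1.03 for Skiv2l2 per gene, 1.32 for Skiv2l2 at U, -1.37 for Eif4a1 and -1.19 for Eif4a3.

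Reactivity was computed for the mRNAs with at least 1 stop per base, as the log2 ratio of reagent over NT at each base, set to 0 where negative, Winsorised at the 90th percentile and scaled from 0 to 1, with the larger of DMS and CMCT kept. Bases without a stop in the reagent were set to 0. The median over members was 0.205 in 5′ UTRs (n = 30), 0.339 in coding regions (n = 32) and 0.227 in 3′ UTRs (n = 31), against 0.226, 0.354 and 0.245 over all protein-coding genes. The 3′ UTR lay below the coding region in 31 of 31 members (91.3% over all genes) and the 5′ UTR in 24 of 30 (88.3%).

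The depth of stops differed between regions too. In the 3′ UTR, stops per base were lower than in the coding region in 29 of 35 members in NT, with a median ratio of 0.441, in 33 of 35 in DMS (0.384) and in 32 of 35 in CMCT (0.456), and the part of this in the reactivity was not tested. In the 5′ UTR stops per base were lower than in the coding region in 13 of 33 members in NT, 19 in DMS and 21 in CMCT, with median ratios of 1.27, 0.895 and 0.671. Dhx9 had 0.028 and 0.007 stops per base of its 3′ UTR in NT, 0.010 and 0.003 in DMS and 0.063 and 0.003 in CMCT, and a reactivity of 0.022 there against 0.323 in its coding region.

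Coding regions were the most reactive in Ddx39b (0.562), Ddx5 (0.543) and Ddx39 (0.541), and the least in Dhx30 (0.279) and Dhx38 (0.280), a helicase of the second step of splicing. The 3 highest lay between the 97.4th and the 98.1st percentile of all protein-coding genes. Counts were first divided by their mean over the isoform, and the isoform of Ddx39b holds SNORD83, where NT had the larger share of stops. The part of this in its coding and motif II reactivity was not tested. In the replicates alone, Ddx39b had 0.542 and 0.545, Ddx5 0.542 and 0.575 and Ddx39 0.510 and 0.504, so the order of Ddx39b and Ddx5 is within the spread between replicates, and both replicates of Ddx39 lay below theirs. Reactivity and depth moved together, with a Spearman correlation of 0.620 between stops per base and coding reactivity across 32 members. In windows of 10 bases, the reactivities of both replicates had a Pearson correlation between 0.723 (Ddx1) and 0.931 (Ddx39b) in the 11 members deep enough.

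**Figure D5:**
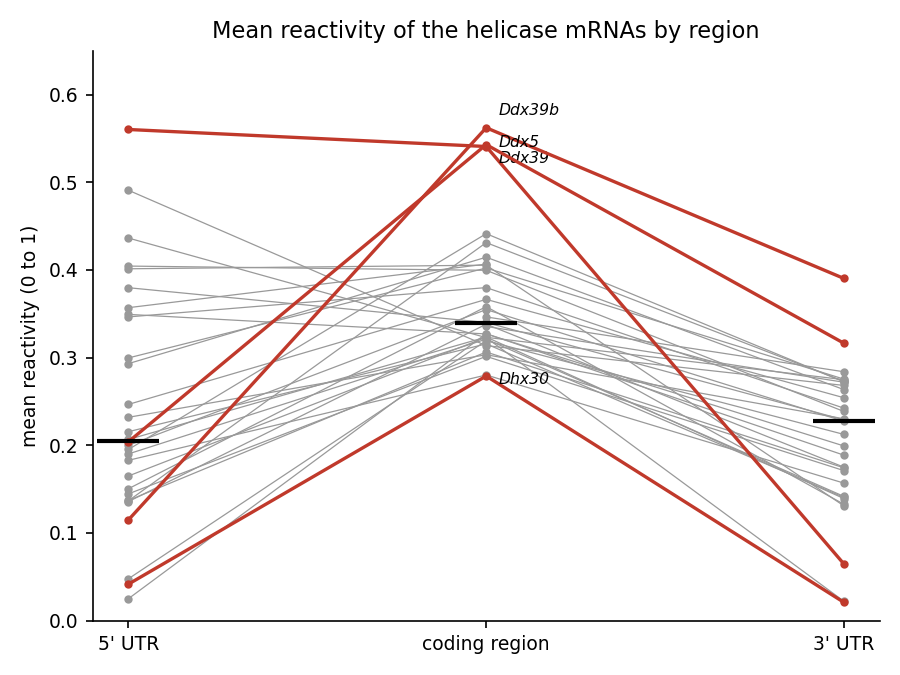
Mean reactivity (0 to 1) by region of each helicase mRNA, from its 5′ UTR over its coding sequence to its 3′ UTR, with both replicates summed. Lines join the regions of 1 mRNA, black bars are medians (0.205, 0.339 and 0.227), and the mRNAs with the 3 highest coding values and the lowest are in red. Every line with both regions falls from the coding region to the 3′ UTR.

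At motif II itself the counts were small outside the deepest mRNAs. Over the 12 bases of Ddx39 printed above there were 64 and 30 stops in NT, 53 and 27 in DMS and 86 and 69 in CMCT, and over those of Ddx39b 36 and 19, 44 and 21, and 62 and 49. The mean reactivity of the 6 bases found once was 0.709 in Ddx39 and 0.623 in Ddx39b, against 0.541 and 0.562 in the coding region. In Ddx21 it was 0.517 against 0.380, over 2 and 0 stops in NT, 6 and 5 in DMS and 5 and 5 in CMCT. In Dhx15 it was 0.507 against 0.402, over 1 and 2, 9 and 10, and 10 and 7 stops. Other members lay below their coding region, such as Ddx17 (0.154 against 0.441) and Ddx24 (0.083 against 0.327). So did another match in Dhx15, Asp-Glu-Met-Asp (0.203 against 0.402), so the motifs printed do not stand for the family. The identical bases of Ddx19a and Ddx19b carried 5 and 2 stops each in NT, and 6 and 5 against 7 and 4 in DMS.

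Other strong positions found once were single bases of highly expressed members. The C of Ddx5 printed above, at chr11:106643870 in 5 of its 10 isoforms, had 214 and 61 stops in NT, 179 and 32 in DMS and 795 and 736 in CMCT. CMCT was the highest in both replicates there, although the base is a C. A U in the 5′ UTR of Ddx39 (chr8:86239183) had 79 and 21 in NT, 112 and 26 in DMS and 111 and 163 in CMCT, and a U in the 5′ UTR of Ddx3x (chrX:12858146) had 75 and 120, 20 and 29, and 82 and 18. At the position of Ddx3x the 2 CMCT replicates lay on either side of DMS.

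Transcripts with a retained intron were listed for 16 genes with intron positions found once. The intron of Ddx3x had 4.89% and 4.14% of the stops per base of its mRNA in NT, 6.38% and 6.97% in DMS and 5.56% and 5.45% in CMCT. That of Ddx5 had 11.6% and 14.8%, 32.9% and 29.01%, and 20.4% and 13.0%, with both DMS libraries above the others. In Ddx55 the intron had 90.2% and 118% in NT, 47.6% and 58.3% in DMS and 67.5% and 98.7% in CMCT. At its strongest intron position found once, chr5:125005966, the replicates were nearly equal, with 51 and 50, 28 and 28, and 81 and 80 stops.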

How the data were processed

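The authors deposited, per CIRS-seq library, each transcript position with its raw, unnormalized count of RT stops, from reads mapped to an mm9 variant with E14 single-nucleotide variants, and the RNA-seq as 1 row per alignment to mm9. The submitters' processing notes name FastQC 0.10.1, Bowtie 1.0.0, bedtools 2.17.0 and TopHat2 2.0.6. Read filters and the placing of reads with several matches are not given in the sources used here. Files that pool the replicates were not used. Positions are those of the modified base, and the last 25 bases of a transcript carry no counts.

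Of 26827 transcripts, 35 are not in GENCODE vM1 and were left out. Counts per gene, and per gene and base, of positions found once were compared in 1 fit over the 6 libraries with edgeR 4.0.16 in R 4.3.3 (TMM, filterByExpr, quasi-likelihood test, Benjamini-Hochberg adjustment over all genes or gene and base pairs, threshold 0.05). This left 11476 genes and 38 members, and 37 members at each base. DESeq2 1.42.0 was an alternative. The fit was tested on simulated data. Stops per base and reactivity (pseudocount 1, regions with 30 positions found once or more) used the isoform with the longest coding region. RNA-seq alignments were counted by their midpoint in exons of 1 gene, which placed 22286799 of 31857551, and could not be filtered for multiple matches. Tables were made with Python 3.11.15.

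The members and lists were chosen with earlier results of these data known. Named were the 10 highest and 5 lowest RNA-seq levels, members past the threshold, pairs of paralogs, the ends of the coding reactivity and the 5 strongest positions found once, at most 1 per gene. Other genes and positions named were chosen after their values were seen. Alternatives were other positions, scaling, filter, tool, pseudocount, depth, reagent, isoform, a replicate block and each library left out, and, added after seeing the data, leaving out small RNA positions, each gene's strongest position, or genes of near-equal replicates.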

Additional observations from a re-analysis of the deposited data

How the results depend on the processing

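Per gene, the 2 members called in DMS became 4 with all positions (all lower, 12.5% of all genes). They became 1 with DESeq2's size factors (6.11% of all genes higher and 2.81% lower) or without each gene's strongest position (6.31% and 2.4%). They became 0 without small RNA positions (6.76% and 2.67%) or without genes of near-equal replicates (0% in both directions). The 0 called in CMCT became 11 with all positions (6 higher, 5 lower, beside 15% and 13.9% of all genes). DESeq2's Wald test called 4 (3 higher, 1 lower, beside 8.58% and 7.84%). With 1 NT or CMCT library left out, the median log2 fold change of the members in CMCT lay between 0.27 and 0.46. Over all genes it lay between -0.03 and 0.09. Per gene and base, the 70 calls in DMS became 23 to 51 with 1 library left out (14.1% to 19.1% of all pairs higher, 2.9% to 12.4% lower), and the 34 rises at A became 16 to 28, lowest without NT replicate 2, where the share of all genes rising at A was 53.4% (49.2% to 64.2% over the 4 libraries). Without genes of near-equal replicates the calls were 78, with 30 higher and 48 lower (17.6% and 13.2% of all pairs), and the rises at A were 30 (64% of all genes). The 3 calls in CMCT, all higher, became 28 with all positions (15 higher, 13 lower, beside 11.3% and 11%). They became 1 with DESeq2's size factors (4.52% of all pairs higher and 2.95% lower) or without small RNA positions (5.02% and 3.02%). Without genes of near-equal replicates they became 0 (0.0967% and 0.0498%). In the same order the 2 rises at U became 13, 1, 1 and 0 (19.9%, 9.04%, 9.99% and 0.229% of all genes). With 1 library or the genes of near-equal replicates left out, log2 fold changes at U were 0.85 to 1.17 for Ddx10 and 1.01 to 1.35 for Dhx36. The rise of Dhx36 at A was not called with DESeq2's size factors or no filter (3.78% and 4.68% of all genes higher). Nor was it without small RNA positions or each gene's strongest position (4.3% and 4.4%). Among the values recomputed under each alternative, the direction turned in Ddx39b alone, in DMS at A to 1.29 without small RNA positions and 0.94 without each gene's strongest position, and in CMCT per gene to 0.15 without small RNA positions.

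The replicate block gave 1 call per gene in CMCT, Ddx3x (10.2% of all genes higher), 6 per gene and base (9%) and 5 at U (18.3%), with Ddx3x, Dhx40 and Ddx21 added, and its other counts of adjusted calls stayed within 1.5 times. At an unadjusted p it moved the members per gene in DMS from 2 to 5 (31.6% to 38.4% of all genes), and at C from 3 to 7 (22.3% to 28.7%). In CMCT it moved those at C from 3 to 6 (22.2% to 27.2%) and at G from 5 to 8 (27.4% to 31.6%). The deviations of same-numbered libraries had r = 0.41 for NT and DMS and 0.0204 and 0.0344 for the pairs with CMCT. Same-numbered NT and DMS libraries thus deviated together in part, and the main fit does not take this up. With the block, the members called lower in DMS went from 16 to 22 at G and from 17 to 24 at U (18.3% and 29.5% of all genes).

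The 1.78 stops per base became 2.172 with all positions and 0.726 to 1.06 in 1 replicate. The reactivity of 5′ UTRs was 0.189 with all positions, 0.304 to 0.306 in 1 replicate, 0.123 with DMS alone, 0.127 with CMCT alone and 0.170 at a depth of 5. That of coding regions was 0.355 to 0.382, 0.196, 0.220 and 0.487 in the same order from 1 replicate on. That of 3′ UTRs was 0.198 with a pseudocount of 5, 0.193 with all positions, 0.230 to 0.244 in 1 replicate, 0.115 and 0.142 with 1 reagent and 0.296 at a depth of 5. The order of coding regions above UTRs held in all of these. The values in 1 replicate rest on 10 to 20 members by region and those at a depth of 5 on 4, so they are medians over other sets of genes. The RNA-seq median was 90.7 in coding exons alone, against 25.4 over the protein-coding genes in CIRS-seq. Causes were not tested.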

Other observations

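Near-equal replicates were also counted over the series at positions found once, where only 2 helicase positions were deep enough to set beside them. Of 7402 positions with at least 50 stops in every library, 3350 (45.3%) had replicates within 2 stops of each other in NT, DMS and CMCT alike, in 1050 genes, and among positions found more than once 20486 of 97597 (21.0%) did. In the helicases, the bases 5, 4 and 3 before SNORD83 had 127 and 128, 215 and 215, and 263 and 258 stops in the NT replicates, whereas the base before SNORD83 had 1336 and 1205.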
